A study of Homo sapiens with 7 samples.

Results

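The retinoid genes described here are 8 genes that handle or sense retinoic acid: CRABP2, ALDH1A3, RDH10, DHRS3, RARA, RARG, RXRA and RXRB. They were chosen by gene symbol, from rows of a deposited table of raw read counts, out of 60675 gene identifiers in all, and each symbol matched exactly 1 row. The choice was made with earlier results of the same comparison known, in which CRABP2 stood among the largest rises, so their differences between the groups are given as a description and carry no p. All 8 passed the filter on low counts and were among the 16583 genes tested.

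The cells were MDA-MB-231, an established human triple-negative breast cancer line, profiled by RNA sequencing. The 4 siDEPDC1 libraries, labelled as a DEPDC1 knockdown, came from cells transfected with small interfering RNA against DEPDC1, and the 3 siCTL libraries, labelled as DEPDC1 wild type, came from cells transfected with a control siRNA by the same lipid reagent. In both groups the medium was changed after 8 h and RNA was taken 2 days after transfection. The labels do not say whether libraries of a group came from separate cultures, so the tests measure the spread between libraries, which may be technical, and the sources used here do not say whether the DEPDC1 siRNA was 1 sequence or a pool.

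Retinoic acid is made from vitamin A in steps. Retinol dehydrogenases such as RDH10 oxidise retinol to retinaldehyde, DHRS3 reduces retinaldehyde back to retinol, and ALDH1A enzymes oxidise retinaldehyde irreversibly to retinoic acid. CRABP2 carries retinoic acid to nuclear receptors, FABP5 is the carrier linked to the receptor PPARD, and CYP26 enzymes break the acid down. Retinoic acid receptors (RARs) bind DNA as dimers with retinoid X receptors (RXRs) at paired copies of a short hexamer, holding corepressors without ligand and coactivators with it. In breast cancer, ALDH1A3 is known as a source of the aldehyde dehydrogenase activity used to mark stem-like cells.

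Totals were 7690583 to 13483305 counts in the siDEPDC1 libraries and 11704246 to 15360409 counts in the siCTL libraries. Levels below are CPM, each library's counts brought to a common total, with TMM factors that correct for differences in library composition. The siRNA target DEPDC1 was at 11.9 to 15.3 CPM in siDEPDC1 and 114 to 120 CPM in siCTL. The mesenchymal markers VIM (at least 3491 CPM), AXL and CD44 were abundant in all 7 libraries, and the hormone receptor genes ESR1 and PGR were at most 0.651 CPM. Against the list drawn up for this line, the mesenchymal marker SPARC was at most 1.07 CPM. Of the markers listed as low or absent, EPCAM was at 10.1 to 12.5 CPM and GATA3 at 5.82 to 7.84 CPM, while FOXA1 was at 0.663 to 1.57 CPM. Of the markers of the line, 3 were lower in siDEPDC1. ZEB1, a mesenchymal transcription factor, was at 80.7 to 94.9 CPM in siDEPDC1 and 110 to 117 CPM in siCTL (edgeR adjusted p = 1.5e-05), and the growth factor receptor gene EGFR at 426 to 494 CPM in siDEPDC1 and 533 to 592 CPM in siCTL (edgeR adjusted p = 0.00018). CDH1, the epithelial cadherin, was near undetected at 0.196 to 0.535 CPM in siDEPDC1 and 0.869 to 1.55 CPM in siCTL (edgeR adjusted p = 0.003). Their part in the results below was not tested. Of 9 markers of other cell types 3 were tested and 0 passed in edgeR, also at an unadjusted p under 0.05. These 3 were detected in every library. The smooth muscle marker MYH11 was at 18.4 to 21.0 CPM in siDEPDC1 and 16.2 to 18.5 CPM in siCTL. The endothelial marker PECAM1 was at 9.78 to 12.6 CPM in siDEPDC1 and 10.5 to 14.2 CPM in siCTL. The myeloid marker LYZ was at 7.94 to 10.5 CPM in siDEPDC1 and 6.92 to 9.25 CPM in siCTL. HBB and DCN had no count. The summed level of the 9 was 40.1 to 41.8 CPM in siDEPDC1 and 36.5 to 42.9 CPM in siCTL. In bulk RNA, fewer cells that express a gene and less of its RNA per cell cannot be told apart.

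Across all genes tested, 34.4% passed an adjusted p of 0.05 (edgeR quasi-likelihood test, Benjamini-Hochberg), with 16.5% higher and 17.9% lower in siDEPDC1. Of the 8 retinoid genes 4 passed. CRABP2 and ALDH1A3 were higher, RDH10 and RXRA were lower, and DHRS3, RARA, RARG and RXRB did not pass. The same 4 that passed had siDEPDC1 and siCTL values that did not overlap, which held for 37.3% of all genes tested. The median log2 fold change of the 8 was 0.087, and that of all genes tested was 0.00094.

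**Figure D1:**
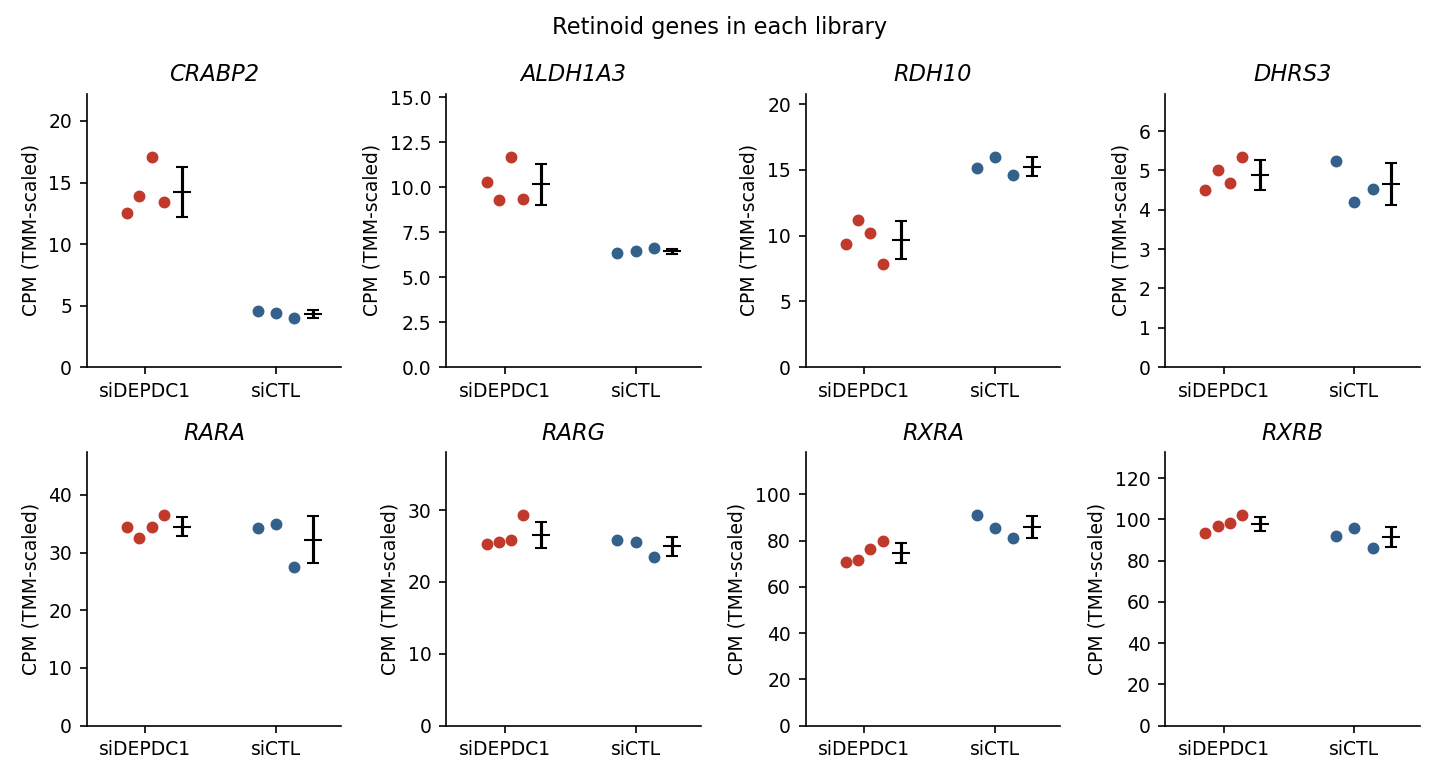
TMM-scaled CPM of each of the 8 retinoid genes in each library, with siDEPDC1 left of siCTL; points are libraries and bars are the mean with SD (n = 4 and n = 3). CRABP2 and ALDH1A3 sit above, and RDH10 and RXRA below, every siCTL library, while the other 4 genes overlap between the groups.

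CRABP2, the carrier that hands retinoic acid to its receptors, showed the largest difference of the 8. Its gene (ENSG00000143320) lies on the minus strand of chromosome 1, from 156699606 to 156705816 (GRCh38, GENCODE release 29). The siDEPDC1 libraries held 12.5, 13.9, 17.1 and 13.4 CPM, against 4.57, 4.4 and 4.00 CPM in the siCTL libraries. The lowest siDEPDC1 library was thus well above the highest siCTL library. These levels rest on 128, 189, 131 and 150 counts in siDEPDC1 and on 62, 67 and 46 counts in siCTL. The means were 14.2 ± 1.98 CPM (SD, n = 4) in siDEPDC1 and 4.32 ± 0.293 CPM (SD, n = 3) in siCTL, a fold change of 3.24 (log2 1.70 ± 0.13, SE). By size of change in either direction CRABP2 ranked 49 of 16583 genes. The value stayed between 1.62 and 1.75 on the log2 scale in each of 15 other ways of fitting the counts.

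ALDH1A3, which makes retinoic acid from retinaldehyde, was also higher. The gene (ENSG00000184254) lies on the plus strand of chromosome 15, from 100877714 to 100916626. It was at 10.3, 9.28, 11.7 and 9.36 CPM in the siDEPDC1 libraries and at 6.33, 6.43 and 6.60 CPM in the siCTL libraries. The siCTL values were tightly grouped and all 4 siDEPDC1 values lay above them. The mean was 10.2 ± 1.14 CPM in siDEPDC1 and 6.46 ± 0.136 CPM in siCTL (SD), and the fold change was 1.55 (log2 0.64 ± 0.12, SE). An antisense gene, ENSG00000259583, shares 1585 exon bases with ALDH1A3 on the opposite strand. It was at 7.45 ± 0.627 CPM in siDEPDC1 and 5.14 ± 0.372 CPM in siCTL (SD; log2 fold change 0.53 ± 0.14, edgeR adjusted p = 0.0026). ALDH1A3 has 5772 merged exon bases. The sources used here do not state a strand setting for the counting. Whether reads in the shared bases were told apart between the 2 genes is therefore not known.

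The bases before the RefSeq start sites of both raised genes were read (GRCh38.p14), since retinoic acid receptors act through short sites near their target genes. Each is shown 5′ to 3′ on the gene's own strand, with capitals for any copy of the receptor hexamer AGGTCA, its variant AGTTCA, its variant GGGTCA and the doubly changed GGTTCA, read on both strands. The CRABP2 stretch is chr1:156705785-156706034 (minus strand) and the ALDH1A3 stretch is chr15:100879581-100879830 (plus strand). The RefSeq start sites differ from the GENCODE gene bounds given above. The whole ALDH1A3 stretch and the end of the CRABP2 stretch nearest its start site lie within those bounds.
CRABP2: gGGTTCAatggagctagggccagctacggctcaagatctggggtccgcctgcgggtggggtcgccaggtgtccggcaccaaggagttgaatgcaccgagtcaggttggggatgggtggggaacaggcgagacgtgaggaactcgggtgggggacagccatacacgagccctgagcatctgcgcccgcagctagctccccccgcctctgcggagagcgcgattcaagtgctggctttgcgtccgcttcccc
ALDH1A3: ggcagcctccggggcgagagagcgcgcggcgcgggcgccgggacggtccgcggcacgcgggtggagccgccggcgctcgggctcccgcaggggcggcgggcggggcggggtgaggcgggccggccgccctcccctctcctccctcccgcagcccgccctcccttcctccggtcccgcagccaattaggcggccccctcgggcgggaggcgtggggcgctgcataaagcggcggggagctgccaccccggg

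CRABP2 had 1 such hexamer, at position -249 from the start site, and ALDH1A3 had none. At least 1 of them occurs in 38.6% of all 35116 promoter windows of 300 bases in the table. The ALDH1A3 stretch was 82.4% G and C and the CRABP2 stretch 65.6%, against a median of 58.0% over all promoters. Sites farther from the start were not searched.

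RDH10, the dehydrogenase that starts the pathway from retinol, was lower. It was at 9.39, 11.2, 10.2 and 7.84 CPM in the siDEPDC1 libraries and at 15.1, 16 and 14.6 CPM in the siCTL libraries. Every siDEPDC1 library lay below every siCTL library. The gene (ENSG00000121039) lies on the plus strand of chromosome 8, from 73294612 to 73325281. The mean was 9.65 ± 1.41 CPM in siDEPDC1 and 15.2 ± 0.719 CPM in siCTL (SD). Thus 63.4% of the siCTL level was left (log2 fold change -0.66 ± 0.11, SE). RDH10 shares 278 exon bases with RDH10-AS1 on the opposite strand. That antisense gene was at 0.262 ± 0.131 CPM in siDEPDC1 and 0.61 ± 0.242 CPM in siCTL (SD). It did not pass the filter on low counts.

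DHRS3 (chromosome 1, 12567910 to 12617731, minus strand), the reductase that runs the opposite step and is known to act in a complex with RDH10, was at 4.50, 5.01, 4.69 and 5.35 CPM in siDEPDC1 and at 5.23, 4.20 and 4.52 CPM in siCTL. The groups overlapped and the difference did not pass (log2 fold change 0.08 ± 0.15, SE). DHRS3 had 36 to 71 counts per library, and its standard error was the largest of the 8. The ratio of RDH10 to DHRS3, each per kilobase of exon, was 1.19, 1.28, 1.24 and 0.837 in siDEPDC1 and 1.65, 2.18 and 1.84 in siCTL. These ratios did not overlap between the groups.

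**Figure D2:**
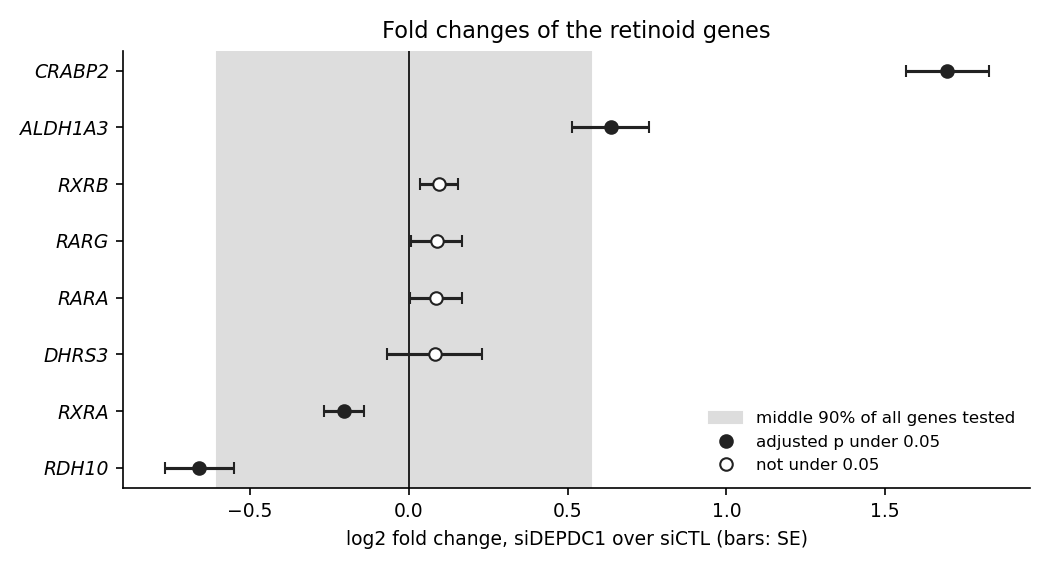
Log2 fold change of each retinoid gene, siDEPDC1 over siCTL, with bars for the SE; filled points passed an adjusted p of 0.05 and the grey band holds the middle 90% of all genes tested. CRABP2 at 1.70 lies far outside the band, ALDH1A3 and RDH10 lie just beyond its edges, and the receptor genes cluster near 0.

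Among the receptors, RXRA was lower by a small margin. RXRA (chromosome 9, 134317098 to 134440585, plus strand), a partner shared by many nuclear receptors, was at 70.9, 71.7, 76.3 and 79.9 CPM in siDEPDC1 and at 91.0, 85.5 and 81.2 CPM in siCTL. The highest siDEPDC1 library lay only slightly under the lowest siCTL library. The means were 74.7 ± 4.20 CPM in siDEPDC1 and 85.9 ± 4.88 CPM in siCTL (SD), and the log2 fold change was -0.20 ± 0.063 (SE). RXRA no longer passed without siCTL replicate 1, at -0.16, or without siDEPDC1 replicate 2, at -0.18.

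RXRB (chromosome 6, 33193588 to 33200688, minus strand), its close relative, was at 93.5, 96.9, 98.2 and 102 CPM in siDEPDC1 and at 91.8, 95.8 and 86.1 CPM in siCTL. The groups overlapped and the difference did not pass (log2 fold change 0.10 ± 0.060, SE). RXRB shares 244 exon bases with SLC39A7, a zinc transporter gene on the opposite strand, whose level was 289 ± 6.57 CPM in siDEPDC1 and 257 ± 1.99 CPM in siCTL (SD; edgeR adjusted p = 0.011). The RXRA to RXRB ratio per kilobase was 0.271 ± 0.00716 in siDEPDC1 and 0.333 ± 0.0176 in siCTL (SD), with no overlap between the groups. The size of this ratio also depends on the length used. By the longest transcript RXRA was at 13.0 and RXRB at 33.6 per kilobase in siDEPDC1. In siCTL RXRA was then at 14.9 and RXRB at 31.4. The third RXR gene, RXRG, had 1 count in the siDEPDC1 libraries together and 0 in the siCTL libraries.

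RARA and RARG, the 2 main retinoic acid receptors of these cells by level, overlapped between the groups and did not pass. RARA (chromosome 17, 40309192 to 40357643, plus strand) was at 34.5, 32.5, 34.4 and 36.5 CPM in siDEPDC1 and at 34.3, 35.0 and 27.5 CPM in siCTL, with siCTL replicate 3 the lowest of the 7 (log2 fold change 0.09 ± 0.081, SE). RARG (chromosome 12, 53210567 to 53232980, minus strand) was at 25.3, 25.6, 25.9 and 29.3 CPM in siDEPDC1 and at 25.9, 25.5 and 23.5 CPM in siCTL (log2 fold change 0.09 ± 0.080, SE). RARA shares 556 exon bases with its antisense gene RARA-AS1, which was at 2.31 ± 0.181 CPM in siDEPDC1 and 2.18 ± 0.612 CPM in siCTL (SD). It also shares 291 exon bases with ENSG00000278918 on the opposite strand. That gene was at 6.04 ± 1.03 CPM in siDEPDC1 and 5.91 ± 0.543 CPM in siCTL (SD). The RARA to RARG ratio per kilobase was 1.41 ± 0.0581 in siDEPDC1 and 1.40 ± 0.113 in siCTL (SD). The summed level of RARA, RARB and RARG per kilobase was 13.6 to 14.9 in siDEPDC1 and 12.5 to 14.2 in siCTL, and that of the RXR genes was 30.3 to 33.2 in siDEPDC1 and 29.3 to 32.2 in siCTL.

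Levels of different genes can be compared only per length, here as CPM per kilobase of merged exons. RXRB led in both groups, at 24.9 ± 0.868 in siDEPDC1 and 23.3 ± 1.25 in siCTL (SD). CRABP2 stood second in siDEPDC1, at 12.9 ± 1.80, and at place 5 of 8 in siCTL, at 3.93 ± 0.266. In siDEPDC1 it was followed by RARA, RXRA, RARG, RDH10, ALDH1A3 and DHRS3. In siCTL the order was RXRB, RXRA, RARA, RARG, CRABP2, RDH10, DHRS3 and ALDH1A3. The ranges of RARA and RXRA overlapped in both groups, as did those of RDH10 with ALDH1A3 and of ALDH1A3 with DHRS3 in siDEPDC1, and all other neighbours were apart. Dividing by the longest transcript instead gave RXRA a siCTL level of 14.9 per kilobase, 1.92 times that by merged exons, and raised those of DHRS3, RARG and RARA by 1.76, 1.73 and 1.55 times. The order in siCTL was the same with that length, but in siDEPDC1 RXRA then stood above RARA and RDH10 last. With that length the ranges of CRABP2 (12.1 to 16.5) and RXRA (12.3 to 13.9) overlapped in siDEPDC1, so second place was not separated. In siCTL those of CRABP2 (3.87 to 4.42) and RDH10 (3.7 to 4.06) overlapped.

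**Figure D3:**
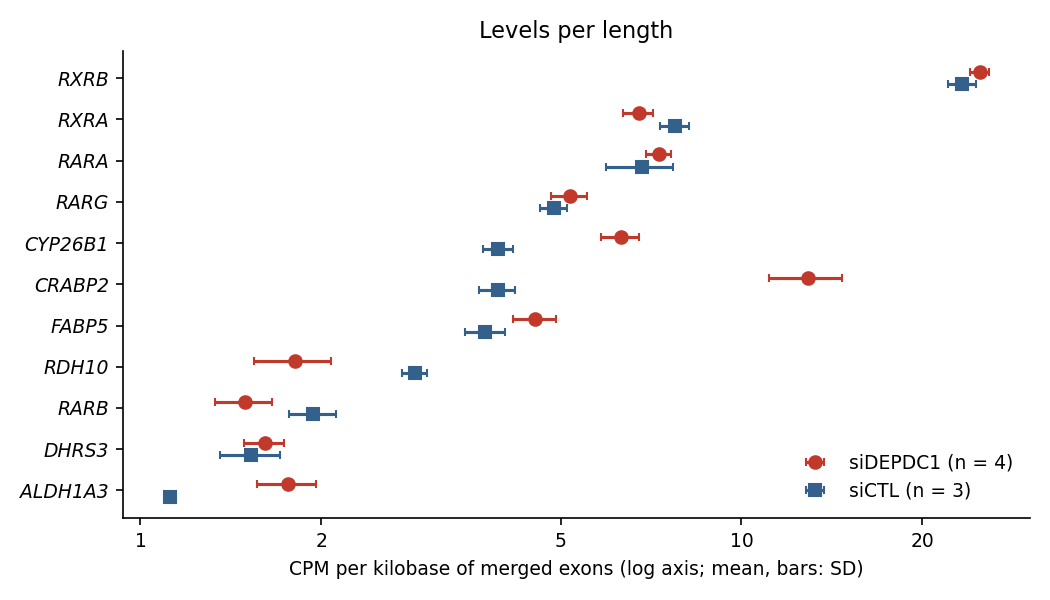
Mean CPM per kilobase of merged exons on a log axis, with bars for the SD, for the 8 retinoid genes and for FABP5, CYP26B1 and RARB, with siDEPDC1 drawn above siCTL. CRABP2 takes the second place in siDEPDC1 (12.9) and lies among the middle genes in siCTL (3.93), and RXRB is highest in both.

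The rest of the pathway was read from lists drawn up from general knowledge, with 93 distinct genes of which 56 were tested. Over all genes tested, 16.5% were higher and 17.9% lower in siDEPDC1, with a median log2 fold change of 0.00094, the background for every list. Among 31 other genes of retinoid metabolism 10 were tested, 2 were higher and 0 were lower in edgeR, with a median log2 fold change of 0.02. At an edgeR unadjusted p under 0.05, 3 were higher and 2 lower, where 7196 of all 16583 genes tested were under it. DESeq2 and limma-voom each called 0 of the list lower. CYP26B1, which breaks retinoic acid down, rose in every siDEPDC1 library, to 32.3, 30.7, 29 and 34.4 CPM, against 18.5, 20.6 and 20.2 CPM in siCTL. Its fold change was 1.60 (log2 0.68 ± 0.082, SE; edgeR adjusted p = 3.4e-08). RDH13, a mitochondrial retinol dehydrogenase family member, rose 1.23-fold (edgeR adjusted p = 0.012) but lost the call without siCTL replicate 1 (edgeR adjusted p = 0.059) or without siCTL replicate 3 (edgeR adjusted p = 0.06). RDH11, the most abundant gene of this list that did not pass, was at 95.7 ± 3.40 CPM in siDEPDC1 and 101 ± 5.45 CPM in siCTL (SD).

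Of 12 other retinol and retinal oxidoreductase genes 5 were tested, but several other genes of the pathway had few or no counts. Besides ALDH1A3, the retinaldehyde oxidising genes were close to undetected, with at most 1 count per library for ALDH1A1 and at most 10 for ALDH1A2, and neither was tested. CYP26A1 and the carrier CRABP1 had 0 counts in all 7 libraries, where 3 counts would correspond to 0.197 to 0.391 CPM. The retinol uptake receptor STRA6 reached at most 0.516 CPM in siDEPDC1 and 0.782 CPM in siCTL. The ALDH1A3 to CYP26B1 ratio per kilobase was 0.276, 0.263, 0.351 and 0.236 in siDEPDC1 and 0.298, 0.271 and 0.283 in siCTL, and the groups overlapped.

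FABP5, the other retinoic acid carrier detected, was at 9.98, 9.06, 10.2 and 8.55 CPM in siDEPDC1 and at 7.96, 8.27 and 7.12 CPM in siCTL. The groups did not overlap, but the difference did not pass (log2 fold change 0.26 ± 0.12, SE; edgeR adjusted p = 0.089). FABP5 has near-identical pseudogene copies, so its counts are uncertain. The CRABP2 to FABP5 ratio per kilobase was 2.37, 2.90, 3.17 and 2.95 in siDEPDC1 and 1.08, 1.00 and 1.06 in siCTL. All 4 siDEPDC1 ratios were above the 3 siCTL ratios. The size of this ratio depends on the length used: by the longest transcript CRABP2 was at 13.8 and FABP5 at 9.57 per kilobase in siDEPDC1, and CRABP2 at 4.18 and FABP5 at 7.89 in siCTL.

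**Figure D4:**
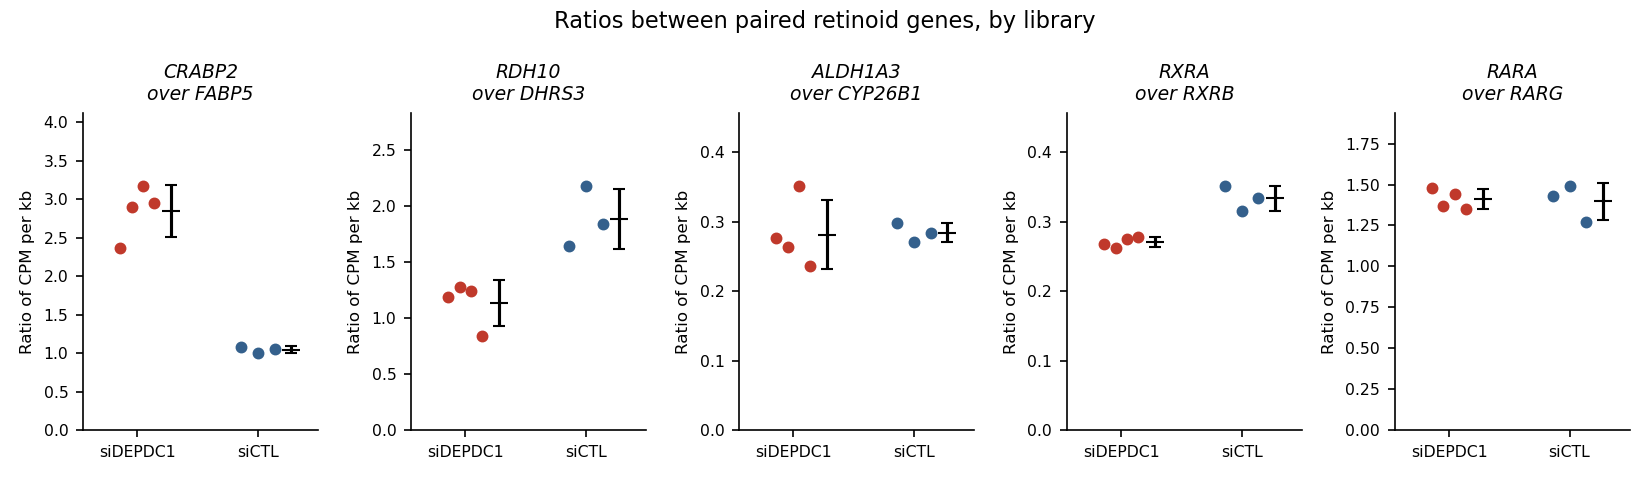
Ratios of CPM per kilobase between paired retinoid genes in each library, with siDEPDC1 left of siCTL; points are libraries and bars are the mean with SD (n = 4 and n = 3). The CRABP2 to FABP5 ratio averages 2.85 in siDEPDC1 and 1.05 in siCTL, the RDH10 to DHRS3 and RXRA to RXRB ratios are lower in siDEPDC1, and the other 2 ratios overlap.

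Of 15 further nuclear receptors, RARB, RXRG and partners of RXR, 12 were tested, 3 were higher and 4 lower (median log2 fold change -0.078). The shares over all genes tested were 16.5% higher and 17.9% lower. PPARD, the receptor linked to FABP5, rose to 77.0, 83.2, 92.0 and 83.5 CPM in siDEPDC1, against 63.6, 66.4 and 61.1 CPM in siCTL. Its fold change was 1.31 (edgeR adjusted p = 9.7e-06). NR1H2, an oxysterol receptor, and THRA, a thyroid hormone receptor, rose 1.21-fold and 1.2-fold (edgeR adjusted p = 0.0017 and 0.0028). The other oxysterol receptor, NR1H3, fell 1.26-fold (edgeR adjusted p = 0.01), and its calls with a library left out are not reported here. NR4A2, an orphan receptor, fell 1.34-fold and THRB, the other thyroid hormone receptor, 1.31-fold (edgeR adjusted p = 0.012 and 0.024). With siCTL replicate 1 left out the adjusted p of NR4A2 by edgeR became 0.054, with siCTL replicate 3 left out 0.05 and with siDEPDC1 replicate 2 left out 0.057, so the call was lost each time. The call of THRB was lost with siCTL replicate 2 left out, at an edgeR adjusted p of 0.12. It was likewise lost with siDEPDC1 replicate 1 (0.08) or 4 (0.057) left out. DESeq2 did not call THRB either (DESeq2 adjusted p = 0.09). In replicates 1 to 3 of both groups the call was lost with a replicate block (edgeR adjusted p = 0.057) and without it (0.056). PPARG, the most abundant that did not pass, was at 92.4 ± 2.21 CPM in siDEPDC1 and 84.9 ± 1.55 CPM in siCTL (SD; edgeR adjusted p = 0.10), and passed without siDEPDC1 replicate 1 (edgeR adjusted p = 0.049).

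RARB, a classic target of retinoic acid signalling as well as a receptor, was at 5.58, 6.26, 4.82 and 5.35 CPM in siDEPDC1 and at 6.85, 6.76 and 7.91 CPM in siCTL. The groups did not overlap and the log2 fold change was -0.35 ± 0.14 (SE; edgeR adjusted p = 0.042). This call was lost under 11 of 15 other ways of fitting the counts, including 6 of the 7 that leave out 1 library (edgeR adjusted p = 0.056 to 0.16), and only the one without siDEPDC1 replicate 2 kept it. RARB is shown because its start site carries the paired hexamers that RAR and RXR dimers are known to bind. The 100 bases before 1 of its RefSeq start sites, chr3:25428163-25428262 (plus strand, GRCh38.p14), hold GGTTCA and then AGTTCA, this pair in capitals, 5 bases apart.
RARB: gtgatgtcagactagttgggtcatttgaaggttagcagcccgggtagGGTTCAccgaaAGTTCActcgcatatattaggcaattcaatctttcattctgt

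Such a direct repeat of any of the 4 hexamers with 5 bases between was found in 31 of the 35116 promoter windows (0.0883%), and in none of the windows found for CRABP2, ALDH1A3, DHRS3, RARA, RARG, RXRA or RXRB.

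Genes known to respond to retinoic acid in other cells moved in both directions. Of 30 listed genes 16 were tested, 5 were higher and 4 lower, with a median log2 fold change of -0.092. Among all genes tested 16.5% were higher and 17.9% lower. TGM2, a transglutaminase, fell in every siDEPDC1 library, to 327, 356, 354 and 372 CPM, against 555, 537 and 515 CPM in siCTL. Its log2 fold change was -0.60 ± 0.055 (SE; edgeR adjusted p = 7.6e-11). PLAAT4, a phospholipase known as a retinoic acid receptor responder, fell to 19.6 ± 1.21 CPM in siDEPDC1, against 30.8 ± 0.464 CPM in siCTL (SD; edgeR adjusted p = 4.5e-08). ICAM1, a cell adhesion molecule, fell 1.35-fold (edgeR adjusted p = 1.3e-05).

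On the other side, CYP26B1 belongs to this list too. SOX9, a transcription factor, was at 207 ± 8.44 CPM in siDEPDC1 and 170 ± 2.98 CPM in siCTL (SD; edgeR adjusted p = 0.00012). ELF3, an epithelial transcription factor, rose 1.28-fold (edgeR adjusted p = 0.0082). At an edgeR adjusted p of 0.096 it missed the threshold once siCTL replicate 2 was left out. It also missed it with a replicate block on replicates 1 to 3 (edgeR adjusted p = 0.058). IRF1, the most abundant member that did not pass, was at 79.9, 80.8, 79.8 and 79.5 CPM in siDEPDC1 and at 87.4, 82.3 and 87.6 CPM in siCTL (edgeR adjusted p = 0.20).

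Of 8 listed genes that respond to PPARD, 7 were tested, 4 were lower and 0 higher in edgeR (median log2 fold change -0.21). Across all genes tested 17.9% were lower and 16.5% higher (median log2 fold change 0.00094). The count of higher genes was also 0 at an unadjusted p under 0.05, in DESeq2 and in limma-voom. PDK4, a kinase that restrains pyruvate oxidation, was at 3.81, 4.20, 3.52 and 5.08 CPM in siDEPDC1 and at 6.48, 7.15 and 6.60 CPM in siCTL. It fell 1.61-fold (edgeR adjusted p = 0.0004). CPT2, a mitochondrial enzyme of fatty acid import, fell 1.31-fold (edgeR adjusted p = 0.00047). ANGPTL4, a lipase inhibitor, fell 1.28-fold (edgeR adjusted p = 0.029). Its groups overlapped, at 6.48 to 8.51 CPM in siDEPDC1 and 8.32 to 11.3 CPM in siCTL. Its edgeR adjusted p was 0.29 with siCTL replicate 2 left out and 0.15 with siDEPDC1 replicate 2 left out. It also did not pass in DESeq2 (DESeq2 adjusted p = 0.11) or with a replicate block on replicates 1 to 3 (edgeR adjusted p = 0.073). Without siCTL replicate 2 its log2 fold change was -0.21, against -0.36 with all libraries. ACSL3, an acyl-CoA synthetase, fell 1.15-fold (edgeR adjusted p = 0.0063, and 0.064 without siCTL replicate 3). ACADVL, of fatty acid oxidation, was at 321 ± 14.8 CPM in siDEPDC1 and 316 ± 6.99 CPM in siCTL (SD). Transcript levels of targets do not measure receptor activity.

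Of 16 coregulators that RARs and RXRs recruit, 15 were tested, 3 were higher and 3 lower (median log2 fold change -0.066). For all genes tested the shares were 16.5% higher and 17.9% lower. The arginine methyltransferase CARM1, a coactivator, was at 138 ± 8.23 CPM in siDEPDC1 and 111 ± 6.39 CPM in siCTL (SD; edgeR adjusted p = 9.6e-05). A second arginine methyltransferase gene, PRMT1, fell to 167 ± 8.23 CPM in siDEPDC1, against 199 ± 15 CPM in siCTL (SD; edgeR adjusted p = 0.00092). MED1, the Mediator subunit that binds liganded receptors, rose 1.16-fold (edgeR adjusted p = 0.0040, and 0.052 without siCTL replicate 2).

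The other 3 calls among coregulators were weak. TBL1X, a corepressor subunit, had a log2 fold change of 0.18 (edgeR adjusted p = 0.047), its relative TBL1XR1 one of -0.18 (edgeR adjusted p = 0.025) and the coactivator NCOA2 one of -0.23 (edgeR adjusted p = 0.030). TBL1X lost the call in 6 of the 7 fits that leave out 1 library, all but the one without siDEPDC1 replicate 1 (edgeR adjusted p = 0.051 to 0.22). TBL1XR1 lost it in 5, without siCTL replicates 2 or 3 or siDEPDC1 replicates 2, 3 or 4 (edgeR adjusted p = 0.056 to 0.13). NCOA2 lost it in 5, without siCTL replicates 1 or 3 or siDEPDC1 replicates 2, 3 or 4 (edgeR adjusted p = 0.051 to 0.14).

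**Figure D5:**
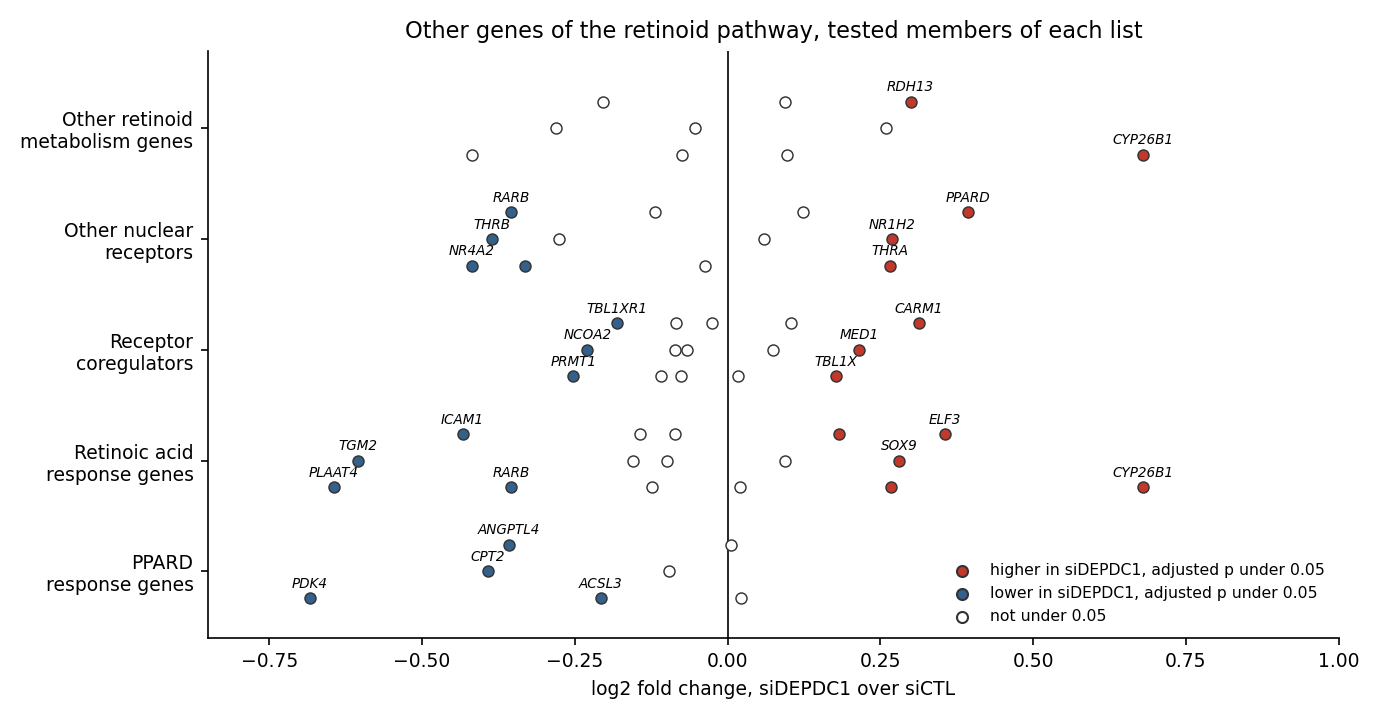
Log2 fold change, siDEPDC1 over siCTL, of every tested gene in the 5 lists of other retinoid pathway genes; red points are higher and blue points lower in siDEPDC1 at an adjusted p under 0.05, and open points did not pass. The 4 PPARD response genes that passed are all to the left of 0, and the retinoic acid response genes lie on both sides, from PLAAT4 at -0.64 to CYP26B1 at 0.68. Among all genes tested 16.5% were higher and 17.9% lower.

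A short word in transcripts was also looked up, because genes that carry GATAACT in the 3' UTR were lower more often in this comparison. Of 12321 searched genes 949 carried it, and 54.2% of these were lower, against 17.5% of the 11372 without it. The word had been picked from these same fold changes, so these shares describe it and do not test it. In the annotated 3' UTR of 1 kept transcript per gene, RDH10 carried 1 copy and the other 7 retinoid genes none. Among 55 other searched genes of the lists 6 carried it, of which RARB, ACSL3 and TBL1XR1 were lower and CREBBP, MEIS2 and NRIP1 did not pass. The sites of the 3 lowered genes are shown with the word in capitals, 5′ to 3′ on the transcript strand. The word lies at chr3:25597080-25597086 in RARB, chr2:222943314-222943320 in ACSL3 and chr3:177022379-177022385 in TBL1XR1 (GRCh38, GENCODE release 29).
RARB: aggttcaaaaaGATAACTgtcttgctttc
ACSL3: ttaatgtttggGATAACTgccaagaagaa
TBL1XR1: cttttagaagtGATAACTcttaatttcct

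Any annotated transcript of the 8 genes was searched as well. RXRA carried the word in a transcript that is not marked as coding in release 29, at chr9:134437242-134437248, and DHRS3 carried it only in a transcript with a retained intron. The RXRA site is shown because RXRA was, after RDH10, the other retinoid gene that was lower, and the DHRS3 site is not shown. Sites were thus chosen by outcome, and a link between the word and these levels was not tested.
RXRA: ctttttccaaaGATAACTcacagttttgc

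Which genes changed most like CRABP2 was judged by the root mean square difference of log2 levels over the 7 libraries, each gene set to its siCTL mean, among 11435 tested genes with a symbol and a mean of at least 5 CPM. The nearest was the histone gene H2AC6, with a difference of 0.163, at 22.6 ± 2.63 CPM in siDEPDC1 and 7.03 ± 0.757 CPM in siCTL (SD). It was followed by the actin-bundling gene LCP1 (0.173), the histone gene H4C9 (0.186), CYP24A1 (0.193) and the carbonic anhydrase gene CA9 (0.203). CYP24A1 encodes the hydroxylase that inactivates vitamin D and is a known target of the vitamin D receptor, a partner of RXR. Its level was 29.4 ± 2.7 CPM in siDEPDC1 and 11.2 ± 0.688 CPM in siCTL (SD), a difference that follows from how it was picked. The vitamin D receptor gene itself, VDR, was at 5.96 ± 0.777 CPM in siDEPDC1 and 7.23 ± 0.833 CPM in siCTL (SD; edgeR adjusted p = 0.12). H2AC6 and H4C9 have near-identical relatives, so the counting may have shared their reads.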

How the data were processed

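The authors deposited raw read counts per Ensembl gene for each of the 7 libraries, unnormalized and unpooled. Per the labels' protocols these were TruSeq RNA libraries with paired reads of 100 bases. FastQC, STAR 2.7.9a, DESeq2 and the build GRCh38 are listed per the submitters' processing notes, with no role or order. The counter, the annotation release and the strand setting were not stated in the labels or the notes.

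The deposited counts were filtered with edgeR's filterByExpr by group and a two-sided quasi-likelihood test was run (edgeR 4.0.16, R 4.3.3; group as the only term, TMM factors, glmQLFit with robust = TRUE, glmQLFTest), with Benjamini-Hochberg adjustment over all 16583 genes tested and a threshold of 0.05. Errors of log2 fold changes are implied by the F statistic. The fit was tested on simulated data. Symbols were found for 42022 of 60675 identifiers, and lengths, transcripts and coordinates came from GENCODE release 29, which may not be the release used for counting. Likeness to CRABP2 used log2 of CPM plus 0.5, and 3' UTRs of at least 50 bases were searched.

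The members and the gene lists were chosen with earlier results of these data known. From each list, all genes that passed are named where there were 6 or fewer, otherwise the 3 largest rises and 3 largest falls, plus the most abundant that did not pass, except among the coregulators, where it is not reported here. FABP5, VDR, NR1H3 and genes that overlap a member or carry the searched word were named after their values were seen. Alternatives were other scalings, count filters, DESeq2 1.42.0, limma-voom (limma 3.58.1), a replicate block, and each library left out. Replicate counts of 3 and 4 and the depth limit precision most for genes with low counts, such as DHRS3.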

Additional observations from a re-analysis of the deposited data

Results flagged for a closer look

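Values of the 4 siDEPDC1 libraries were examined in 42 genes for 1 library standing off, by its gap to the nearest as a share of the whole range, against Dixon's critical value. In 4 genes a library stood apart, where chance flags about 1 in 20 such sets. RARG was at 29.3 CPM in siDEPDC1 replicate 4, above the other 3 at 25.3 to 25.9 CPM. TBL1X was at 62.5 CPM in siDEPDC1 replicate 4, against 53.6 to 53.8 CPM in the others. ACADVL was at 343 CPM in siDEPDC1 replicate 4, the highest of the 4. PPARG was at 89.1 CPM in siDEPDC1 replicate 1, the lowest of the 4. What set these values apart was not tested.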

How the results depend on the processing

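Over 15 alternatives the 8 retinoid genes gave 120 log2 fold changes, of which 117 kept their direction and their side of the threshold. The exceptions were the 2 lost calls of RXRA given above and RARA, which was at -0.0106 without siCTL replicate 3 and at 0.146 without siCTL replicate 2. ACADVL turned to -0.00883 with a replicate block, -0.00886 in replicates 1 to 3 of both groups without it and -0.00793 without siDEPDC1 replicate 4, where the highest with 1 library left out was 0.0393, without siDEPDC1 replicate 1. Replicate numbers did not pair the libraries (correlations of deviations -0.116 to 0.00298 over 3 same-numbered pairs). A replicate block on replicates 1 to 3 called 4724 genes, against 5415 in the same libraries without it and 5707 in all libraries.

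Small counts of list members moved. With the replicate block, 1 metabolism gene, 2 nuclear receptors and 1 coregulator were lower and 3 response genes higher; in the same 6 libraries without the block, 2, 2 and 1 were lower. DESeq2 called 2 nuclear receptors lower, and library size alone called 1 coregulator lower. Leaving out 1 library gave 1 to 2 metabolism genes higher and 0 to 2 lower, 1 to 3 nuclear receptors lower, and 1 to 3 coregulators higher and 1 to 3 lower. The causes were not tested. Library size alone moved the median log2 fold change of all genes by 0.03 and dropping the count filter by -0.068. The genes nearest to CRABP2 were the same 5 with library size alone. Depth limits most the genes under the count filter, such as ALDH1A2 and STRA6.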
